A study of Mus musculus with 12 samples.

Results

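The set examined held 40 genes of mitosis and chromosome segregation, chosen by name from the 22561 genes of the count table. They were 6 cyclins and mitotic kinases, 3 genes of the chromosomal passenger complex, 6 of the spindle checkpoint and the anaphase-promoting complex, 7 of the centromere and kinetochore, 5 spindle motors and assembly factors, 6 of the midzone and cytokinesis, 5 of condensin, and the chromosome genes Top2a and Mki67. Their RNA was measured in follicular (FO) B cells, the main recirculating B cells of the spleen, sorted from C57BL6 mice of 10 weeks of age. The 12 samples formed 4 groups of 3: unstimulated cells, and cells exposed over 12 h to IFNα (a type I interferon), to CpG (DNA that activates Toll-like receptor 9), or to CpG + IFNα. No transgene or deletion was named for any group, and the sources used here did not say whether the unstimulated cells had also been cultured for 12 h. They also did not say whether the 3 samples of a group came from separate mice or cultures, so that p-values measure the spread between these samples only.

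Resting FO B cells are quiescent, and cells stimulated through Toll-like receptor 9 grow and then pass through DNA replication before they divide. In most dividing cells the genes of mitosis are transcribed late, in G2 and M phase, and are held down in quiescent cells by the DREAM complex, which binds the CHR element of their promoters, often beside CCAAT boxes bound by NF-Y. Their products condense the chromosomes, attach them to the spindle, delay anaphase until every chromosome is attached, and then split the cell.

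The libraries held unique molecular identifier (UMI) counts, 1 for each captured RNA molecule, with totals between 922450 and 1103064 in unstimulated samples and between 1884673 and 2923865 in CpG + IFNα samples. Levels are given as CPM, the counts scaled by edgeR's TMM factors to a common library total. The reads came from the 3′ end, so a count does not grow with transcript length and CPM was compared between genes. The B cell markers Ms4a1, Cd79a, Cd79b, Pax5, Cd22, Fcer2a and Cr2 summed to 7040 to 8190 CPM in unstimulated samples, 5970 to 6870 with IFNα, 1080 to 1260 with CpG and 940 to 1010 with CpG + IFNα, and 6 of the 7 fell with CpG. Of the markers of other cells that passed the filter, 4 of 5 erythroid, 1 of 1 T cell and 1 of 1 myeloid genes fell with CpG. The erythroid sum was 73.5 to 357 CPM in unstimulated and 30.1 to 82.7 CPM in CpG + IFNα samples, the T cell sum 30.7 to 43.5 and 5.41 to 7.14 CPM, and the myeloid sum 13.5 to 37.1 and 5.13 to 7.14 CPM. The T cell markers Cd3g and Cd8a were at 0 in all 4 groups. In the unstimulated, CpG and CpG + IFNα samples, the germinal centre marker sum was 103 to 145, 58.5 to 72.8 and 57.3 to 77.3 CPM, the marginal zone sum 873 to 934, 548 to 598 and 281 to 307 CPM, and the plasma cell sum 296 to 423, 255 to 273 and 377 to 405 CPM. The part of these shifts in the results was not tested, and in bulk samples fewer cells of a type and less RNA per cell cannot be told apart.

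Of the 40 genes, 25 passed the filter on low counts and were tested among 9431 genes. The other 15 (Ccnb1, Ccnb2, Plk1, Aurka, Bub1, Ube2c, Cenpf, Nuf2, Kif11, Kif4, Hmmr, Kif20a, Prc1, Anln and Ect2) are described by their counts. The 25 tested genes are therefore not the whole set, and a gene could pass the filter through a group in which it was high. A gene was called changed where the edgeR quasi-likelihood test gave an adjusted p under 0.1 and the log2 fold change was over 1 in size.

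A feature that the choice of genes did not use was the promoter. RefSeq promoter windows of GRCm38.p6, from 250 bases before to 50 bases after the start, were held for 33 of the 40 genes and not for Ccna2, Aurkb, Incenp, Spc24, Tpx2, Kif20a and Smc4. The CHR element was searched as TTTGAA and as TTTAAA, and the NF-Y box as CCAAT, on both strands. The form TTTGAA stood in 25 of the 33 windows (75.8%) and in 20.2% of the 27025 genes with a window. TTTAAA stood in 8 (24.2%, against 14.9% of all genes), and CCAAT in 26 (78.8%, against 41.1%). Of the 32 TTTGAA matches in these genes, 24 were centred within 50 bases of the start, and no match overlapped one of another motif. Below are 180 bases of 7 promoters, 130 before the start and 50 after it, written along the gene: 5 of genes that were higher with CpG and both of the genes that were lower. They are shown because TTTGAA stood in both classes, while TTTAAA stood in none of the 5 higher ones shown. Capitals mark the motifs, with TTCAAA the reverse complement of TTTGAA and ATTGG that of CCAAT. The windows were chr4:52439091-52439270 (plus strand) for Smc2, chr7:131560240-131560419 (plus strand) for Bub3, chr11:99024140-99024319 (minus strand) for Top2a, chr2:118598081-118598260 (plus strand) for Bub1b, chr10:69352863-69353042 (minus strand) for Cdk1, chr5:30666756-30666935 (plus strand) for Cenpa and chr17:71526808-71526987 (minus strand) for Ndc80.
Smc2: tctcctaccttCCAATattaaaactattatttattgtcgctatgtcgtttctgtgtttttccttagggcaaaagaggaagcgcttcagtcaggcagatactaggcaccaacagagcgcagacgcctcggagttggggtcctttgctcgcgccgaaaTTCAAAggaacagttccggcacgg
Bub3: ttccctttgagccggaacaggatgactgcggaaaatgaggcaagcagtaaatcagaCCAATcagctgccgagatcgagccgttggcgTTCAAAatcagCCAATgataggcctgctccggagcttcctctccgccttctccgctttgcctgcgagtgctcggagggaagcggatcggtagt
Top2a: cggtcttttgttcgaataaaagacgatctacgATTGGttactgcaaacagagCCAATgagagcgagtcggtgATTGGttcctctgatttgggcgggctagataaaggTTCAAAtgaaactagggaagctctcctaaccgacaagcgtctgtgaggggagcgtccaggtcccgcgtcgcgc
Bub1b: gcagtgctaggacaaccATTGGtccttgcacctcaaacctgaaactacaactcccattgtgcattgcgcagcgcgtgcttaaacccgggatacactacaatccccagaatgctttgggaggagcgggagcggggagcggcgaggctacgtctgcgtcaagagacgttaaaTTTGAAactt
Cdk1: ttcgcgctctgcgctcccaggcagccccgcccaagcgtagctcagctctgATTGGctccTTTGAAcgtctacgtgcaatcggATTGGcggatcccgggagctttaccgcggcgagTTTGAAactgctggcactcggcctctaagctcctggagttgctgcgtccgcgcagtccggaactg
Cenpa: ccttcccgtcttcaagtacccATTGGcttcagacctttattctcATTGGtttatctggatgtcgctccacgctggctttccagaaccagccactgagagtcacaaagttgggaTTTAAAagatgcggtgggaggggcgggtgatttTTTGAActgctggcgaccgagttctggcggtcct
Ndc80: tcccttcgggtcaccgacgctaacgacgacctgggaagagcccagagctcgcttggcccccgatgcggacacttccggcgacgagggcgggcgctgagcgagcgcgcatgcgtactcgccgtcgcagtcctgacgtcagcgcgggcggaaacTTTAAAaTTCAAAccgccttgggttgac
Among the genes with a window, TTTGAA stood in 9 of the 11 called higher with CpG, in 2 of the 2 called lower, in 3 of the 6 not called and in 11 of the 14 not tested. TTTAAA stood in 1, 2, 1 and 4 of them, and CCAAT in 9, 1, 4 and 12. Cenpa and Ndc80, which fell, each held TTTGAA within 50 bases after the start, as did Smc2, Spc25 and Bub1b, which rose with CpG. TTTAAA lay just before the start in Cenpa and just after it in Ndc80. A match is a stretch of letters and not a measured binding site.

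**Figure D1:**
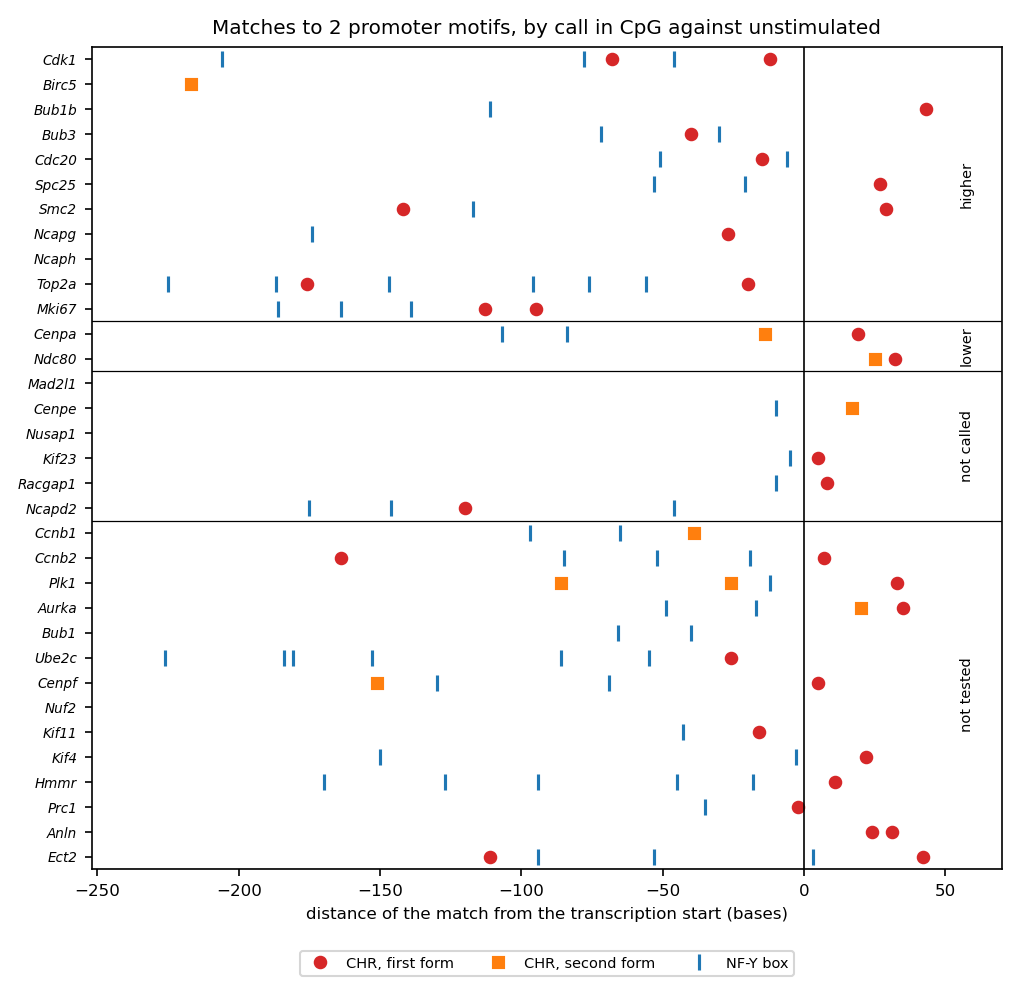
Position of each motif match (x axis, bases from the transcription start, which is at 0) in the RefSeq windows of the 33 genes with a window, grouped by their call in CpG against unstimulated cells. Red circles are TTTGAA, orange squares TTTAAA and blue bars CCAAT, on either strand. Red circles lie in 9 of the 11 genes called higher and in both genes called lower.

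The comparison of CpG with unstimulated cells asked which of these genes respond to Toll-like receptor 9. Of the 25 tested genes, 14 rose and 2 fell, while 20.1% of all genes tested were called higher and 25.5% lower. Mitochondrial and rRNA genes held 6.95 to 8.48% of the counts in unstimulated samples, 3.92 to 6.25% with CpG and 3.86 to 6.4% with CpG + IFNα, so that the stimulated samples lay below the unstimulated ones. With those genes left out of the fit, 14 again rose and 2 fell with CpG. A fit of only the groups compared called 6 higher, and counts thinned to the smallest library total gave 7. In both fits some of the 14 genes did not pass the filter. The median log2 fold change of the 25 with CpG was 1.12, beside -0.03 over all genes tested. Some of the 25, such as Ccna2 with 1 to 3 UMIs in each unstimulated sample, may have passed the filter through groups with CpG. The counts and medians against unstimulated cells may thus be set in part by the filter. With CpG + IFNα, compared with the same unstimulated samples, 9 rose and 3 fell, beside 20.3% and 25.6% of all genes tested, and 10 and 3 with mitochondrial and rRNA genes left out. The median was 0.54 beside -0.01, and a fit of only the groups compared called 5 higher. Of the 25 genes, Cenpa changed most in size in both comparisons. The roles are taken in turn below, the CpG value before that of CpG + IFNα.

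**Figure D2:**
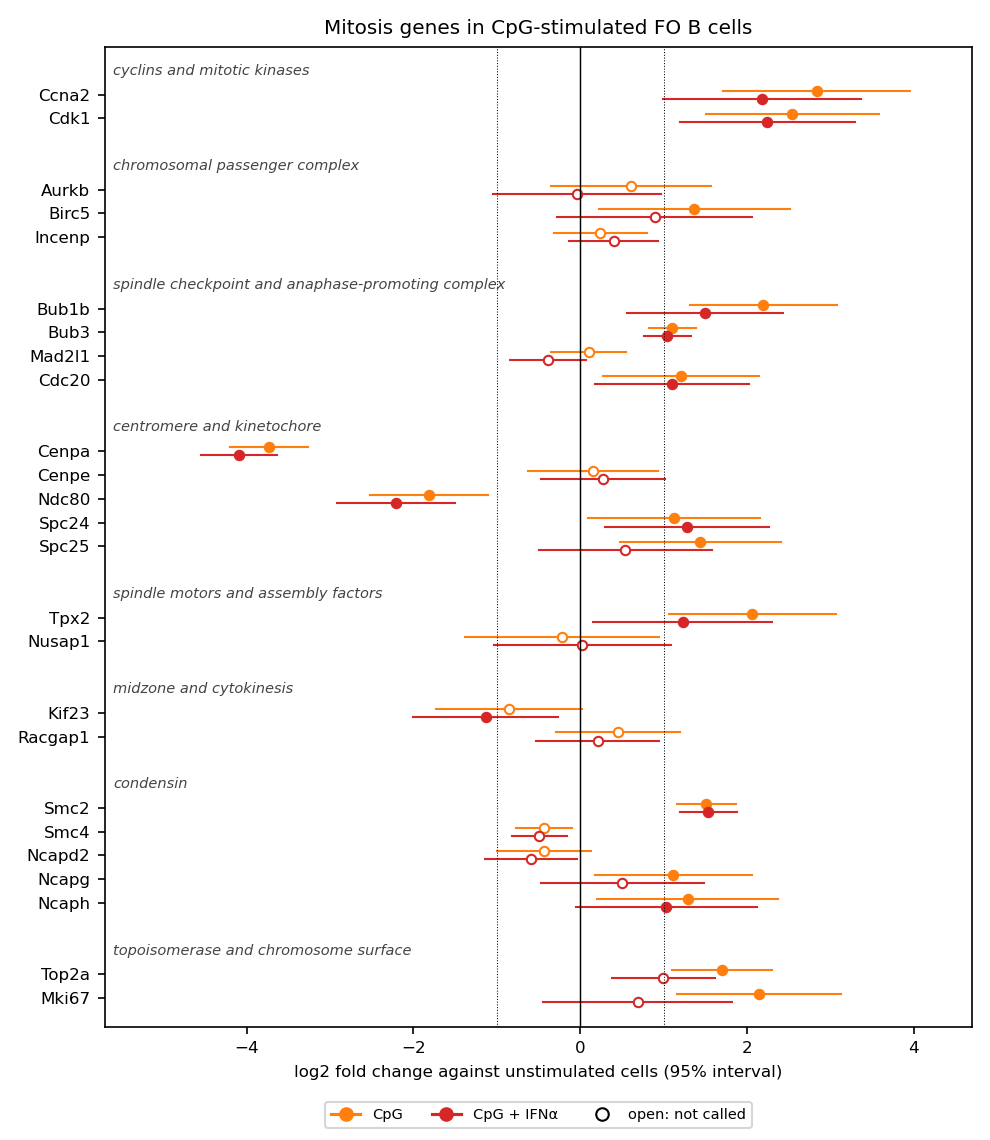
Log2 fold change against unstimulated cells (x axis) with its 95% interval for the 25 tested genes, grouped by role (n = 3 in each group). Orange is CpG, red CpG + IFNα, filled points are called genes and dotted lines mark a log2 fold change of 1 in size; Cenpa (-3.73 and -4.09) and Ndc80 (-1.81 and -2.21) lie to the left of all others.

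Both tested genes of the first role rose. Cyclin A2 (Ccna2) partners Cdk2 in S phase and Cdk1 in G2. It was at 0.903, 3.18 and 0.875 CPM in the unstimulated samples, 1 to 3 UMIs each, and at 7.31, 11.3 and 15.8 CPM with CpG, with no overlap. The fitted log2 fold change was 2.84 ± 0.55 (SE, adjusted p = 3.24e-05), and with CpG + IFNα, at 5.95, 7.87 and 8.16 CPM, it was 2.18 ± 0.58 (adjusted p = 0.00133). Cdk1, the kinase that drives entry into mitosis, was at 0, 4.24 and 2.63 CPM without stimulation and at 12.2, 14.1 and 13.4 CPM with CpG. It rose by 2.55 ± 0.51 with CpG and by 2.24 ± 0.51 with CpG + IFNα on the log2 scale (adjusted p = 4.74e-05 and 0.00026). The exons of Ccna2 share 510 bases with Exosc9 on the other strand, and the strand setting of the counting is not given in the sources used here, so reads of both genes cannot be told apart there.

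In the chromosomal passenger complex, which corrects faulty attachments and guides cytokinesis, Birc5 (survivin) rose with CpG from 0.903, 5.3 and 2.63 CPM to 4.27, 7.78 and 9.9 CPM, groups that overlapped (log2 fold change 1.37 ± 0.56, adjusted p = 0.0298). It was not called with CpG + IFNα. The kinase Aurkb was at 5.91 ± 4.17 CPM (SD, n = 3) without stimulation and 8.33 ± 5.33 CPM with CpG, where replicate 3 (14.4 CPM) stood above replicates 1 and 2 (4.27 and 6.36 CPM). The scaffold Incenp was at 14.3 ± 3.39 and 16.6 ± 1.87 CPM. Neither was called.

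The spindle checkpoint holds back the anaphase-promoting complex until all kinetochores are attached. Its kinase-like component Bub1b (BubR1) was at 3.61, 4.24 and 2.63 CPM without stimulation, at 13.4, 20.5 and 14.9 CPM with CpG and at 10.3, 8.55 and 11.2 CPM with CpG + IFNα. Every stimulated sample lay above every unstimulated one, and the log2 fold changes were 2.19 ± 0.43 and 1.497 ± 0.46 (adjusted p = 4.03e-05 and 0.00423). Bub3, which brings Bub1 and Bub1b to kinetochores and was far more abundant, went from 59.6, 80.6 and 66.5 CPM to 138, 161 and 144 CPM with CpG and 156, 135 and 135 CPM with CpG + IFNα. Its changes were 1.11 ± 0.14 and 1.05 ± 0.14 (adjusted p = 1.92e-08 and 4.12e-08), small in size but measured over 66 or more UMIs in each sample. Cdc20, the activator of the anaphase-promoting complex, rose from 4.51, 3.18 and 3.5 CPM to 9.75, 5.66 and 10.4 CPM with CpG (1.21 ± 0.46, adjusted p = 0.0197) and to 5.41, 8.21 and 10.7 CPM with CpG + IFNα (1.102 ± 0.45, adjusted p = 0.0293). Mad2l1, the inhibitor of Cdc20, was at 25.4 ± 4.39, 27.1 ± 2.7 and 19.6 ± 4.74 CPM in the unstimulated, CpG and CpG + IFNα groups and was not called.

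Of the 5 tested centromere and kinetochore genes, 2 rose and 2 fell with CpG, and 1 rose and 2 fell with CpG + IFNα. Cenpa, the histone H3 variant that marks centromeres, was at 106, 72.1 and 83.1 CPM in unstimulated samples and at 60, 59.7 and 46.9 CPM with IFNα. With CpG it was at 8.53, 4.24 and 6.44 CPM, and with CpG + IFNα at 4.87, 5.13 and 5.1 CPM. No sample with CpG reached the lowest sample without it, and Cenpa fell 13.3-fold with CpG (log2 fold change -3.73 ± 0.23, adjusted p = 1.11e-15) and 17.1-fold with CpG + IFNα (-4.09 ± 0.23, adjusted p = 5.19e-17). Ndc80, the microtubule-binding subunit of the outer kinetochore, was at 18.1, 11.7 and 21.9 CPM without stimulation, at 3.05, 5.66 and 5.94 CPM with CpG and at 4.33, 3.76 and 3.06 CPM with CpG + IFNα. Its log2 fold changes were -1.81 ± 0.35 and -2.21 ± 0.35 (adjusted p = 2.71e-05 and 1.06e-06).

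Spc24 and Spc25, which form the other end of the Ndc80 complex, were called in the opposite direction. Spc25 was at 3.61, 6.36 and 0.875 CPM without stimulation and at 11, 10.6 and 7.43 CPM with CpG, a rise of 1.44 ± 0.47 (adjusted p = 0.00775). It was not called with CpG + IFNα, at 5.41, 4.45 and 5.61 CPM. Spc24 was at 0.903, 3.18 and 7.88 CPM without stimulation, a wide spread that overlapped both stimulated groups. It was at 9.14, 5.66 and 11.4 CPM with CpG (1.13 ± 0.51, adjusted p = 0.0469) and at 7.03, 11.6 and 10.7 CPM with CpG + IFNα (1.28 ± 0.48, adjusted p = 0.0182). The fourth subunit of the complex, Nuf2, had 0 to 7 UMIs in any sample and was not tested. Cenpe, a kinesin of the kinetochore, was at 8.05 ± 1.46 CPM without stimulation, 9.1 ± 2.7 CPM with CpG and 9.86 ± 0.856 CPM with CpG + IFNα.

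Tpx2, which activates Aurka on spindle microtubules, rose from 1.81, 3.18 and 2.63 CPM to 7.31, 9.9 and 14.4 CPM with CpG (2.06 ± 0.49, adjusted p = 0.000417) and to 4.33, 7.87 and 5.1 CPM with CpG + IFNα (1.23 ± 0.53, adjusted p = 0.0366). Nusap1, a microtubule bundling protein, was near its unstimulated level of 3.42 ± 0.86 CPM in both groups with CpG, at 2.88 ± 0.688 and 3.28 ± 1.61 CPM. Kif23, the kinesin of centralspindlin, was at 14.4, 8.49 and 8.75 CPM without stimulation and at 4.33, 3.42 and 7.14 CPM with CpG + IFNα, where it fell by 1.13 ± 0.43 on the log2 scale (adjusted p = 0.0187). With CpG it was at 6.09, 2.12 and 8.42 CPM and passed the adjusted p but not the fold threshold (-0.86 ± 0.43, adjusted p = 0.0768). Its partner Racgap1 was at 7.98 ± 2.3, 10.6 ± 1.98 and 9.14 ± 0.567 CPM in the unstimulated, CpG and CpG + IFNα groups and was not called.

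Condensin folds chromosomes through a pair of SMC ATPases and 3 further subunits, and its 2 ATPase genes did not move together. Smc2 was at 43.3, 35 and 49.9 CPM without stimulation, 101, 115 and 152 CPM with CpG and 141, 132 and 102 CPM with CpG + IFNα. The groups lay apart, and the changes were 1.52 ± 0.17 and 1.54 ± 0.17 (adjusted p = 2.76e-09 and 1.21e-09). Smc4, the most abundant gene of the set, was at 281, 177 and 279 CPM without stimulation, 132, 172 and 241 CPM with CpG and 183, 196 and 147 CPM with CpG + IFNα. These groups overlapped, and the changes of -0.43 ± 0.17 and -0.49 ± 0.16 passed the adjusted p (0.0207 and 0.00852) but not the fold threshold. Of the regulatory subunits, Ncapg rose with CpG from 1.81, 7.42 and 3.5 CPM to 8.53, 12 and 6.93 CPM, groups that overlapped (1.12 ± 0.46, adjusted p = 0.0319). Ncaph rose from 3.61, 3.18 and 2.63 CPM to 5.49, 5.66 and 11.4 CPM with no overlap (1.29 ± 0.53, adjusted p = 0.0311). With CpG + IFNα Ncaph was at 2.7, 6.84 and 9.68 CPM, where replicate 1 lay within the unstimulated range, and it was called just inside the fold threshold (1.03 ± 0.53, adjusted p = 0.0806). Ncapd2 was at 19.5 ± 5.89 CPM without stimulation, 14.4 ± 3.18 CPM with CpG and 13.1 ± 1.44 CPM with CpG + IFNα (-0.59 ± 0.27 with CpG + IFNα, adjusted p = 0.0535, not called). Ncapg shares 944 exon bases with Lcorl on the other strand and Cdc20 shares 53 with Elovl1, while Cenpa, Ndc80, Smc2, Smc4 and Bub3 share none with a counted gene.

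Top2a, the topoisomerase that untangles sister chromatids, was at 13.5, 27.6 and 27.1 CPM without stimulation and at 37.8, 70.7 and 109 CPM with CpG (1.70 ± 0.29, adjusted p = 5.82e-06). With CpG + IFNα it was at 42.7, 57.1 and 33.1 CPM, above every unstimulated sample, and lay just outside the fold threshold (0.999 ± 0.31, adjusted p = 0.00432). Mki67, which coats mitotic chromosomes and is a standard proliferation marker, was at 4.51, 7.42 and 2.63 CPM without stimulation and at 6.7, 19.8 and 35.2 CPM with CpG. The CpG samples were spread widely and overlapped the unstimulated ones, and the change was 2.15 ± 0.48 (adjusted p = 0.000215). With CpG + IFNα Mki67 was at 5.41, 9.24 and 7.65 CPM and was not called.

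**Figure D3:**
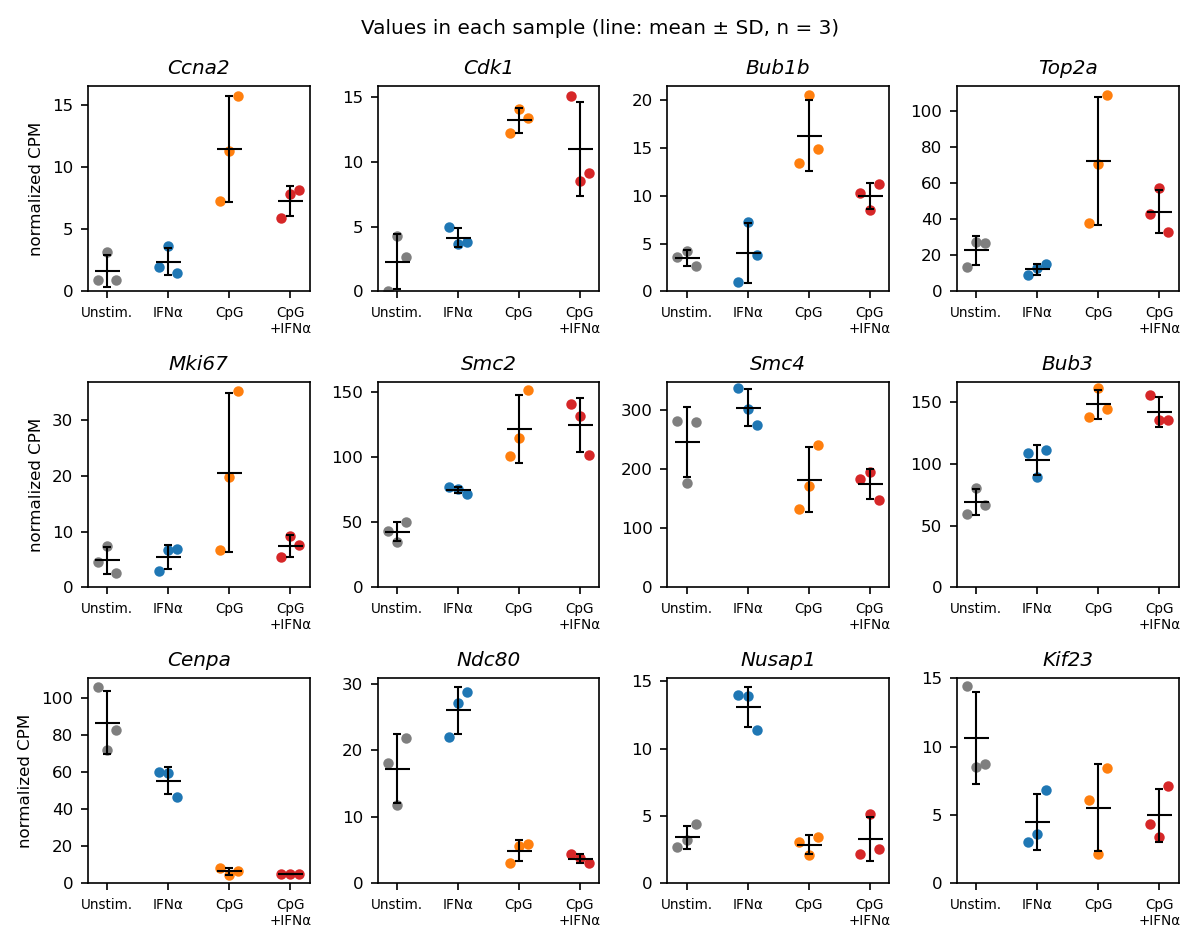
Normalized CPM (y axis, from 0) of 12 genes in every sample of the 4 groups, with the mean and SD as lines (n = 3). Cenpa and Ndc80 are low in every sample with CpG, Nusap1 is high in the IFNα samples alone (11.4 to 14 CPM), and CpG replicate 3 gives the highest Top2a (109 CPM) and Mki67 (35.2 CPM).

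Leaving out 1 library ended 5 of the 16 calls of CpG: Spc24 (without unstimulated replicate 1 or 2 or CpG replicate 3), Ncapg (unstimulated replicate 1 or 3 or CpG replicate 2), Birc5 (unstimulated replicate 1 or CpG replicate 3), and Spc25 and Ncaph (unstimulated replicate 3), with log2 fold changes then of 0.66 to 1.15 and adjusted p of 0.0956 to 0.256. It ended 6 of the 12 calls of CpG + IFNα: Ncaph (any unstimulated replicate or CpG + IFNα replicate 2), Tpx2 and Kif23 (unstimulated replicate 1 or CpG + IFNα replicate 2), Spc24 and Bub3 (unstimulated replicate 1) and Cdc20 (CpG + IFNα replicate 3), with sizes of 0.81 to 1.17 and adjusted p of 1.4e-06 to 0.186. DESeq2 also did not call Tpx2 (1.21, adjusted p = 0.103) and Ncaph (1.02, adjusted p = 0.168) with CpG + IFNα, and with counts thinned to the smallest total Bub3 (0.94, adjusted p = 1.63e-05) and Kif23 (-0.83, adjusted p = 0.229) were not called.

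With IFNα alone, compared with unstimulated cells, 1 of the 25 tested genes rose and 1 fell, beside 4.56% and 4.07% of all genes tested. The B cell marker sum given above was lower with IFNα with no overlap, and so was the marginal zone sum, at 602 to 688 CPM against 873 to 934 CPM, where 3 of 5 tested markers fell. The sums with IFNα were 88.6 to 120 CPM for germinal centre, 279 to 307 CPM for plasma cell, 34.8 to 361 CPM for erythroid, 41.6 to 51.5 CPM for T cell and 8.01 to 17.4 CPM for myeloid markers. Each of these 5 overlapped the unstimulated range, although the 1 tested myeloid marker fell, and the part of these levels in the results was not tested. Nusap1 was at 2.71, 3.18 and 4.38 CPM without stimulation and at 14, 13.9 and 11.4 CPM with IFNα, groups that lay far apart (log2 fold change 1.90 ± 0.45, adjusted p = 0.00194). Its exons share 172 bases with Oip5 on the other strand, which had 121 UMIs over all samples and was itself called higher with IFNα (1.42, adjusted p = 0.0501). Without the strand setting of the counting, reads of both genes cannot be told apart there. Oip5 was also called higher with CpG (1.26, adjusted p = 0.0275), where Nusap1 was not called (-0.22, adjusted p = 0.742). The part of Oip5 reads in the Nusap1 values was not tested. Kif23 fell from 14.4, 8.49 and 8.75 CPM to 3, 3.62 and 6.81 CPM (-1.22 ± 0.48, adjusted p = 0.0732). This call was lost without unstimulated replicate 1 or IFNα replicate 1 or 2 (0.92 to 1.05 in size, adjusted p = 0.184 to 0.308), and also with DESeq2 (-1.24, adjusted p = 0.145) and with thinned counts (-1.42, adjusted p = 0.175). A further 4 genes passed the adjusted p with a fold change under 2. Smc2, at 77.1, 75.4 and 71.9 CPM, differed from unstimulated cells by 0.79 ± 0.19 (adjusted p = 0.00214) and Bub3, at 109, 89.3 and 111 CPM, by 0.58 ± 0.15 (adjusted p = 0.00412). Cenpe, at 21, 18.7 and 9.08 CPM, differed by 0.98 ± 0.36 (adjusted p = 0.0532) and Cenpa by -0.65 ± 0.17 (adjusted p = 0.00414). In all 6 genes, which were picked by their adjusted p here, the IFNα samples did not overlap the unstimulated ones. The same held for Ndc80 and Ncaph, which did not pass (adjusted p = 0.137 and 0.507). The share of all genes tested without overlap was not computed.

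The comparison of CpG + IFNα with IFNα set 2 groups side by side that were both stimulated for 12 h. Of the 25 tested genes, 7 rose and 3 fell, beside 18.7% and 25.5% of all genes tested. Mitochondrial and rRNA genes held 6.91 to 11.65% of the counts with IFNα, above every CpG + IFNα sample, and with them left out 8 rose and 3 fell. All marker sums but the erythroid one also lay apart between these groups, among them the B cell and T cell sums given above, and their part in the results was not tested. Top2a (9.01, 12.7 and 15.1 CPM with IFNα) rose by 1.84 ± 0.33 on the log2 scale (adjusted p = 8.16e-06) and Ncaph (2, 1.81 and 1.51 CPM) by 1.84 ± 0.57 (adjusted p = 0.00468). Ccna2, Cdk1, Birc5, Ncapg and Bub1b rose by 1.13 to 1.53, and for Birc5 the groups overlapped. The falls were those of Cenpa (-3.44 ± 0.24, adjusted p = 1.46e-14), Ndc80 (-2.80 ± 0.31, adjusted p = 1.2e-09), which was at 22, 27.1 and 28.8 CPM with IFNα, and Nusap1 (-1.87 ± 0.37, adjusted p = 4.41e-05). Smc4, at 337, 301 and 275 CPM with IFNα, lay above every CpG + IFNα sample but did not reach the fold threshold (-0.79 ± 0.16, adjusted p = 5.57e-05). The call of Bub1b was lost without IFNα replicate 1 and that of Birc5 without IFNα replicate 2 or CpG + IFNα replicate 3 (log2 fold changes of 0.81 to 1.29, adjusted p of 0.0686 to 0.111). This comparison and that with unstimulated cells share the CpG + IFNα samples.

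The addition of IFNα to CpG asked whether the interferon changes the response to CpG, and here 0 of the 25 tested genes were called higher and 1 lower, beside 2.94% and 2.01% of all genes tested. By edgeR 6 of the 25 had an unadjusted p under 0.05, a cutoff at which the share of all genes tested was not computed. DESeq2 also called 0 higher and 1 lower. The lower gene was Mki67, with 6.7, 19.8 and 35.2 CPM in the CpG samples (11, 28 and 71 UMIs) and 5.41, 9.24 and 7.65 CPM in the CpG + IFNα samples, a change of -1.46 ± 0.37 (adjusted p = 0.00591). The groups overlapped, and without CpG replicate 3 the change was -0.76 with an adjusted p of 0.317. Top2a differed by -0.70 ± 0.23 (adjusted p = 0.0415, not called), and without CpG replicate 3 by -0.25 (adjusted p = 0.631). Leaving out CpG replicate 1 moved both the other way, to -1.87 for Mki67 (adjusted p = 4.03e-05) and -1.01 for Top2a (adjusted p = 0.000443), and 3 genes were then called lower, with Tpx2 the third (-1.04, adjusted p = 0.0835). Without CpG + IFNα replicate 2, Mki67 and Tpx2 (-1.17, adjusted p = 0.0925) were called. CpG replicate 3 had the highest summed level of all 40 genes, 990 CPM beside 649 and 788 CPM in the other CpG samples and 661 to 742 CPM with CpG + IFNα. The B cell, marginal zone and plasma cell marker sums given above did not overlap between these 2 groups, 2 of 7 B cell markers were called lower (Fcer2a by -1.41 and Cr2 by -1.28), and their part in this comparison was not tested. Of the 25 changes, 20 were below 0 and 5 above it, with a median of -0.30 beside -0.04 over all genes tested. The share of all genes tested below 0 was not computed, and all 25 changes rest on the same 6 samples, CpG replicate 3 among them. For 11 genes the 95% interval lay within a 2-fold change in either direction. Among them were Smc2 (0.02), Bub3 (-0.06) and Smc4 (-0.06), whose direction turned under other settings. Cenpa and Ndc80 differed by -0.36 ± 0.35 and -0.40 ± 0.41, neither was called, and both 95% intervals held 0 (-1.07 to 0.35 and -1.23 to 0.44).

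**Figure D4:**
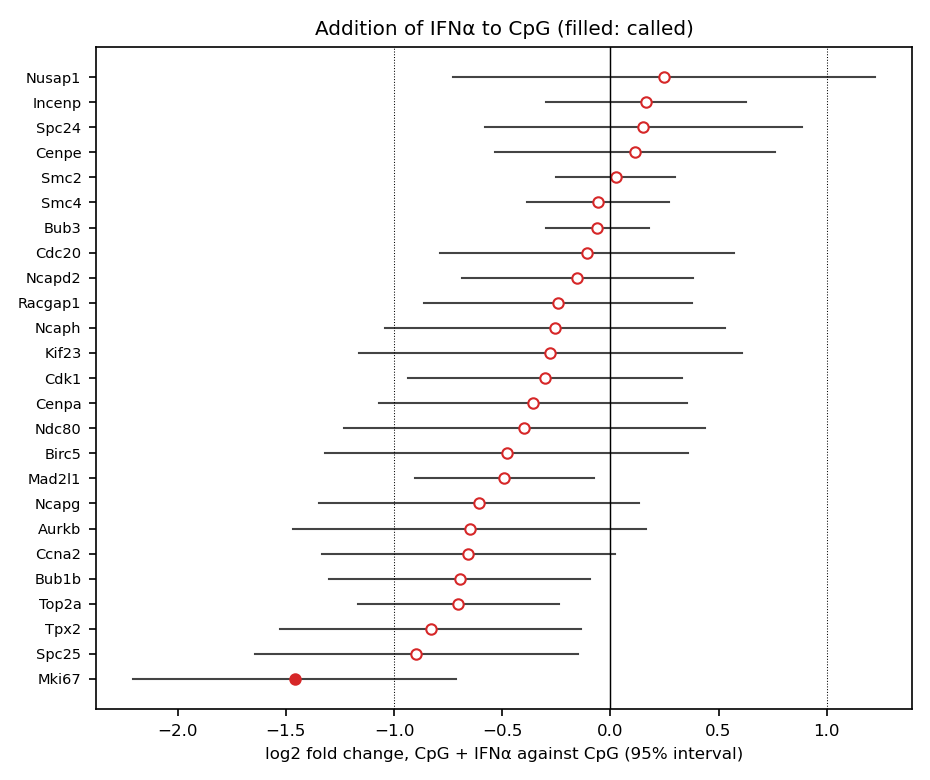
Log2 fold change of CpG + IFNα against CpG (x axis) with its 95% interval for the 25 tested genes, in order of size (n = 3 in each group). Mki67 is the only called gene (filled, -1.46), and 20 of the 25 points lie below 0, a share not computed for all genes tested.

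For the interaction, the change made by IFNα on top of CpG was compared with the change made by IFNα alone, and no tested gene of the set was called in either direction by edgeR, beside 3.09% higher and 3.19% lower of all genes tested. At an unadjusted p under 0.05 there were 5 of the 25, and the share of all genes tested at that cutoff was not computed. DESeq2 called 0 as well. With no fold threshold 2 of the 25 passed, Bub3 (-0.64 ± 0.19, adjusted p = 0.027) and Smc2 (-0.77 ± 0.23, adjusted p = 0.0325), beside 13.4% of all genes tested. Counts of calls moved with the setting: Mki67 was called lower with the replicate block (-1.63, adjusted p = 0.0838) and with no filter (-1.69, adjusted p = 0.0675). Leaving out 1 library gave 0 to 2 lower calls, of Aurkb without unstimulated replicate 2 (-2.21, adjusted p = 0.0375), of Aurkb and Mki67 without CpG replicate 1 (-1.86 and -2.16, adjusted p = 0.0578 and 0.0218) and of Nusap1 without CpG + IFNα replicate 2 (-2.21, adjusted p = 0.0703). Bub3 and Smc2 passed the adjusted p in the comparison of IFNα with unstimulated cells and not in that of CpG + IFNα with CpG.

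The 15 genes below the filter included the defining genes of G2 and M phase. Their summed level was 28.9, 39.2 and 26.3 CPM in unstimulated samples, 20, 26.5 and 19.7 CPM with IFNα, 46.9, 50.9 and 69.3 CPM with CpG and 39.5, 48.6 and 52 CPM with CpG + IFNα, or 20 to 142 UMIs in a sample. Every sample with CpG lay above every sample without it. The B-type cyclins, which activate Cdk1 in mitosis, differed from each other. Ccnb1 had 0, 3 and 2 UMIs in unstimulated, 2, 1 and 0 in IFNα, 3, 8 and 8 in CpG and 10, 14 and 9 in CpG + IFNα samples. Ccnb2 had 3, 6 and 6 UMIs without stimulation and 2, 4 and 1 with CpG + IFNα, whose library totals were higher. The kinase Plk1 had 0 to 8 UMIs in any sample, and Kif20a, a cytokinesis kinesin, 0 to 4.

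With no filter, edgeR called 4 of these 15 higher with CpG, beside 11.2% of all 20341 genes tested so, and 5 higher and 1 lower with CpG + IFNα, beside 12.2% and 15.7%. Against IFNα, CpG + IFNα had 6 higher, beside 11.7%. Ratios of pooled counts are given with exact 95% intervals, which cover counting error only. Kif4, a chromokinesin, had 1 UMI over the unstimulated samples, 19 with CpG (ratio 11.8, interval 1.88 to 491) and 23 with CpG + IFNα (10.7, 1.74 to 441). Bub1, the kinase of the checkpoint, had 3, 19 and 29 UMIs in the same groups (3.94, 1.16 to 20.8, and 4.5, 1.4 to 23.1). It had none in the IFNα samples, which allows up to 0.73 CPM at 3 counts over the group, so that CpG + IFNα was at least 5.92-fold higher. Cenpf, a kinetochore protein, had 4, 32 and 24 UMIs (4.97, 1.76 to 19.4, and 2.79, 0.96 to 11.1). Anln, which links actin and the cleavage furrow, had none in unstimulated samples, 12 with CpG and 10 with CpG + IFNα. These levels were 2.49 and 1.55 times that of 3 counts over the unstimulated samples, again with no counting error taken. Ccnb1 was higher with CpG + IFNα than without stimulation (ratio 3.07, 1.19 to 10.1), and Ccnb2 lower (0.217, 0.075 to 0.566). Aurka, Prc1 and Ect2 were called against IFNα alone, at ratios of 2.28 to 2.86. Kif4, Prc1 and Kif20a share 832, 911 and 1271 exon bases with the counted genes Pdzd11, Rccd1 and Cdc23 on the other strand.

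**Figure D5:**
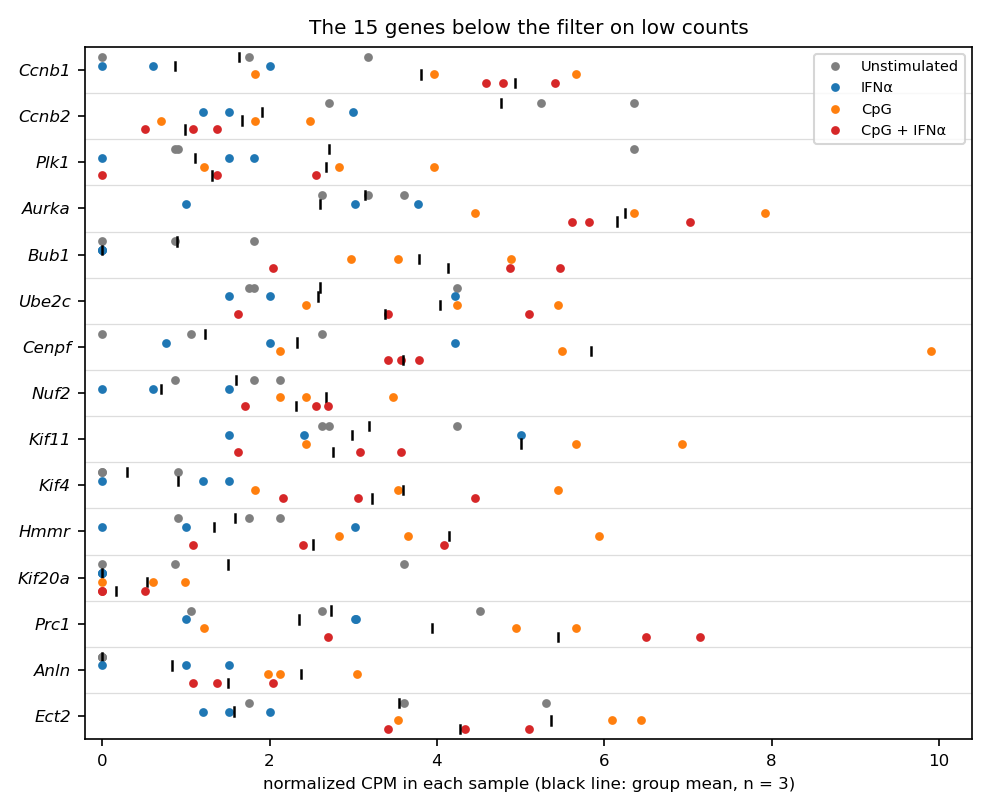
Normalized CPM (x axis, from 0) of the 15 genes below the filter in each of the 12 samples, with the group mean as a black line (n = 3). No value exceeds 9.9 CPM, the unstimulated samples of Anln and the IFNα samples of Bub1 are at 0, and the CpG + IFNα samples of Ccnb1 lie between 4.59 and 5.41 CPM.

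The wider pathway was read from 5 further lists, whose counts stand beside the same shares of all genes tested: 20.1% higher and 25.5% lower with CpG, 20.3% and 25.6% with CpG + IFNα, and 2.94% and 2.01% for CpG + IFNα against CpG. Of 64 other mitosis genes 34 were tested, and with CpG 10 rose and 1 fell (median 0.52), with CpG + IFNα 7 and 2 (median 0.42). With CpG + IFNα the kinetochore genes Zwint (1.64 ± 0.19, adjusted p = 5.1e-09), Cenpm (1.81 ± 0.34, adjusted p = 1.48e-05) and Mis12 (1.02 ± 0.24, adjusted p = 0.000354) rose, as did Ckap2, a spindle protein (3.16 ± 0.60, adjusted p = 2.42e-05). Hjurp, the chaperone that deposits Cenpa at centromeres, fell (-1.04 ± 0.24, adjusted p = 0.000227), and so did Arhgap11a (-1.04 ± 0.41, adjusted p = 0.0243). Hjurp, Arhgap11a and Mis12 stood at the fold threshold and lost their calls under other settings, among them those without unstimulated replicate 1 or CpG + IFNα replicate 2 for Hjurp (-0.91 and -0.89), without unstimulated replicate 2 or CpG + IFNα replicate 1 for Mis12 (0.79 and 0.95), and without unstimulated replicate 2 or 3 or CpG + IFNα replicate 1 or 2 for Arhgap11a (-0.66 to -0.94). Dsn1, a kinetochore gene, was lower with CpG + IFNα than with CpG (-1.48 ± 0.40, adjusted p = 0.0103), and not without CpG + IFNα replicate 2 (-1.15, adjusted p = 0.121).

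Of 14 tested genes of condensin II and cohesin, 1 was called with CpG, where it fell, and 0 were called with CpG + IFNα by edgeR or DESeq2 (9 had an unadjusted p under 0.05 by edgeR). Of 17 genes of the anaphase-promoting complex 0 were called with CpG by edgeR or DESeq2 (9 at an unadjusted p under 0.05 by edgeR), and 1, Anapc10, rose with CpG + IFNα (1.18 ± 0.22, adjusted p = 1.64e-05). For neither list was the share of all genes tested at that unadjusted p computed. Of 18 tested genes that control mitotic entry, 8 rose and 3 fell in each of the 2 comparisons, beside 20.1% and 25.5% of all genes tested with CpG and 20.3% and 25.6% with CpG + IFNα. Among them with CpG + IFNα were Gtse1 (5.29 ± 0.52, adjusted p = 9.08e-11), Tfdp1, the partner of E2F factors (2.27 ± 0.18, adjusted p = 5.25e-13), the phosphatase Cdc25a (2.08 ± 0.18, adjusted p = 2.87e-12) and Arpp19 (1.30 ± 0.13, adjusted p = 7.24e-11). Cdc25b, another activator of Cdk1, fell (-4.68 ± 0.30, adjusted p = 2.5e-15), as did E2f2 (-4.26 ± 0.25, adjusted p = 2e-16) and the DREAM subunit Rbl2 (-2.32 ± 0.40, adjusted p = 5.81e-06). Gtse1 was also higher with CpG + IFNα than with CpG (1.32 ± 0.26, adjusted p = 0.000327), 1 gene of the 18 beside 2.94% of all genes tested, and was not called with counts thinned to the smallest total (0.86, adjusted p = 0.304).

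Of 43 tested DNA replication genes, which act in S phase before mitosis, 27 rose and 1 fell with CpG (median 1.38), and 21 rose and 2 fell with CpG + IFNα (median 0.96). The same shares of all genes tested were 20.1% and 25.5%, and 20.3% and 25.6%. The values were 4.25 ± 0.28 for Tyms (adjusted p = 5.15e-15), 2.58 ± 0.17 for Pold2 (adjusted p = 7.05e-15), 1.99 ± 0.15 for Mcm2 (adjusted p = 1.7e-13) and 2.03 ± 0.17 for Mcm3 (adjusted p = 2.14e-12). Pold1 (-1.37 ± 0.15, adjusted p = 5.83e-10) and Tk1 (-1.47 ± 0.32, adjusted p = 0.000159) fell. With IFNα added to CpG, 1 gene of this list was called, Clspn (-1.24 ± 0.32, adjusted p = 0.00762), and without CpG replicate 3 its change was -0.91 (adjusted p = 0.159). With thinned counts it was -0.56 (adjusted p = 0.6).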

How the data were processed

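Sorted FO B cells of the mouse were profiled by bulk RNA barcoding (BRB) sequencing in 4 groups of 3 samples. Groups came from the sample titles. The deposited table held raw UMI counts for each gene. By the study's methods and the submitters' processing notes, the authors extracted barcodes with UMI-tools 1.1.2, trimmed with Trim Galore 0.6.7, mapped to GRCm38 with HISAT2 2.2.1, assigned reads with featureCounts 2.0.1, extended Tlr9 by 3 kb and counted unique UMIs. The annotation release and the strand setting are not given in the sources used here. All 22561 gene identifiers were found in GENCODE M21, which was used for positions on GRCm38.

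Genes of low count were removed with edgeR 4.0.16 (R 4.3.3; filterByExpr on the groups, 9431 kept), libraries were scaled by TMM, and all 12 samples were fitted with glmQLFit and glmQLFTest (8 residual degrees of freedom). Adjusted p-values are Benjamini-Hochberg over all genes tested and two-sided, errors of fold changes are SEs and errors of levels are SDs. Calls needed more than a 2-fold change and an adjusted p under 0.1. DESeq2 1.42.0, other scalings, filters and thresholds, thinning of counts to the smallest total, a replicate block and leaving out each sample were alternatives. On simulated counts with 196 changed genes tested among 9217 at a log2 fold change of 2, the test recovered 191 in CpG + IFNα against unstimulated cells (0 false calls), 192 against CpG (4), 192 against IFNα (8) and 182 in the interaction (9). Replicates of a group differed by more than sampling alone gives (ratio of chi-square to its degrees of freedom 1.9 to 6.31 over 12 pairs), so none was a copy of another. Rules of naming took all 40 genes, and from the other lists up to 4 called genes of smallest p per direction in CpG + IFNα against unstimulated cells and against CpG. The genes and the lists were chosen with earlier results of these data known. The markers Tnfrsf17, S100a9, Cd3e and Cd4 were not analysed here, and 1 B cell and 1 erythroid marker are not reported here.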

Additional observations from a re-analysis of the deposited data

Results flagged for a closer look

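For 2 of the 25 tested genes the effect of IFNα differed with and without CpG by the interaction term of edgeR, at an adjusted p under 0.1. Both fold changes were under 2, and 13.4% of all genes tested passed that adjusted p with no fold threshold. For Bub3 the difference was -0.64 on the log2 scale (adjusted p = 0.027). Its level was 68.9 ± 10.7 CPM (SD, n = 3) in unstimulated cells and 103 ± 12.1 CPM with IFNα, and 148 ± 11.9 CPM with CpG and 142 ± 12.1 CPM with CpG + IFNα. For Smc2 the difference was -0.77 (adjusted p = 0.0325), at 42.7 ± 7.46, 74.8 ± 2.63, 122 ± 26.2 and 125 ± 20.6 CPM in the same order. The adjusted p of Bub3 was 0.136 without unstimulated replicate 3, and that of Smc2 was 0.13 without CpG replicate 3 and 0.219 with counts thinned to the smallest total. Groups of 3 samples were too small to look for a sample far from the others.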

How the results depend on the processing

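Of the 41 calls of single genes of the set over the 5 comparisons of groups, none changed direction, and 26 held under every other fit that tested the gene. Changes under 2-fold between CpG + IFNα and CpG did turn: Bub3 to 0.003 and Smc4 to 0.007 with no filter, Bub1b to 0.117 and Cdk1 to 0.387 with thinned counts, and, leaving out 1 sample, Smc2 ranged from -0.101 to 0.218 and Smc4 from -0.242 to 0.213. For the counts of called genes, higher and lower, the following moved by over 1.5 times. IFNα against unstimulated (1 and 1): 2 higher and 0 lower with thinned counts, 0 lower with DESeq2, with only the groups compared and at an adjusted p under 0.05, 0 and 0 at a log2 fold change over 2, and 4 and 2 with no fold threshold. CpG against unstimulated (14 and 2): 6 higher with only the groups compared, 7 higher thinned, 5 and 1 at a log2 fold change over 2, and 4 lower with no fold threshold. CpG + IFNα against unstimulated (9 and 3): 15 higher with no filter, 16 higher with at least 3 samples of 3 counts, 5 higher with only the groups compared, 2 higher at a log2 fold change over 2, and 5 lower with no fold threshold. CpG + IFNα against CpG (0 and 1): 0 lower thinned and at a log2 fold change over 2, and 2 lower with no fold threshold. CpG + IFNα against IFNα (7 and 3): 16 higher with no filter, 14 higher with at least 3 samples of 3 counts, 3 higher thinned, 0 higher at a log2 fold change over 2, and 12 and 6 with no fold threshold. Interaction (0 and 0): 1 lower with no filter, 1 lower with the replicate block and 2 lower with no fold threshold. Leaving out 1 sample gave, higher and lower in the same order of comparisons, 1 to 2 and 0 to 1, 11 to 14 and 2 to 3, 6 to 12 and 2 to 3, 0 to 0 and 0 to 3, 6 to 11 and 3 to 4, and 0 to 0 and 0 to 2. The filter was applied anew in each fit, so 17 genes of the set were tested after thinning, 39 with at least 3 samples of 3 counts and 40 with no filter. In the fits of only the groups compared, all 47 values of single genes that were checked and tested again kept their call or lack of one. The calls missing in those fits were of genes that did not pass the filter. With only the groups compared no interaction can be had. Same-numbered samples of different groups correlated between -0.0651 and 0.205 over 18 pairs, 5 of them over 0.1, and differently numbered ones between -0.203 and 0.0556 over 36 pairs. As a hint from the data, 10 of 12 samples correlated best with their own number. The numbers were not taken as pairs, because the labels do not say what they mark and not every same-numbered pair correlated over 0.1. Apart from the interaction, where it added the call of Mki67, the replicate block moved no count of calls by over 1.5 times. Low counts limit the set: 15 of the 40 genes did not pass the filter.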
